A study of Mus musculus with 29 samples.

Results

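The cytosolic ribosome is built from a small (40S) and a large (60S) subunit, and this account follows the genes for its proteins. Members were all rows of the expression table whose symbol has the form Rps or Rpl followed by a number, plus Rplp0, Rplp1, Rplp2 and Rpsa. This gave 84 of 24346 rows, 33 for the small and 51 for the large subunit. Among them, 7 were paralogs named with an added "l" (Rpl3l, Rpl7l1, Rpl10l, Rpl22l1, Rpl39l, Rps27l and Rps4l), which are kept apart from the 77 core genes (31 small, 46 large). Kinases of ribosomal protein S6, rows with a -ps symbol and mitochondrial ribosomal proteins were not members. Rps4l matched the rule by its symbol, although GENCODE annotates it as a transcribed processed pseudogene.

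The mice were male C57BL/6J animals made obese by 10 weeks of high-fat feeding, which every group shared, so no group was lean throughout. For the next 4 weeks they followed 1 of 4 regimens. HFD mice went on eating the high-fat diet at will, and HFD-IF mice kept that diet but fasted on alternate days. CC mice were switched to control chow at will, and CC-IF mice received chow under intermittent fasting. Poly-A RNA of liver and of hippocampus was sequenced from strand-specific libraries, and values were deposited as FPKM, fragment counts scaled for transcript length and library size. The 14 liver libraries were 4 from HFD mice, 2 from HFD-IF, 4 from CC and 4 from CC-IF, and the 15 of hippocampus were 4, 4, 4 and 3 in that order. Libraries are numbered from 0 within a group, as in the table. The replicates are described as biological, though no animals are named, and whether fasted mice were sampled on a fasting or a feeding day is not given in the sources used here. Approximate depth, read from the steps of low values, ran from 9490000 to 16900000 fragments in liver and from 11800000 to 40800000 in hippocampus. These estimates are rough. At the best-fitting depth, 52.8% to 58.8% of the low values in liver lay within 0.2 of a whole count, and 53.5% to 59.3% in hippocampus. Chance gives 40% at a depth that was not searched for.

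Ribosomal protein mRNAs are among the most abundant messages of most cells, and making them is one of the largest costs of growth. They typically begin with a cytosine followed by a run of pyrimidines, the 5′ terminal oligopyrimidine (TOP) motif, through which the mTOR pathway and the RNA-binding protein LARP1 adjust their translation and stability to nutrient supply. In liver, food intake and fasting are classic regulators of ribosome content.

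The TOP run is the sequence feature that ties these genes together, so windows around the annotated starts of some members are shown. Each runs from 10 bases before to 20 bases from the start on the gene's strand, with the pyrimidine run that begins at the start in capitals (RefSeq, GRCm38.p6). The first 4 genes passed the test in the CC-IF against HFD comparison in liver that follows. Rpl35a and Rpl38 did not, and Rps27l is a paralog without a run at either of its 2 annotated starts. Of the 3 annotated starts of Rpl35a the one with a run is shown, and the other 2 hold none.
Rps6 (chr4:86857348-86857377, minus strand): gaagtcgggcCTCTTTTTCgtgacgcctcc
Rps10 (chr17:27635225-27635254, minus strand): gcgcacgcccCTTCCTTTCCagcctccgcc
Rps18 (chr17:33955646-33955675, minus strand): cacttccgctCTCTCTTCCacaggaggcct
Rpl28 (chr7:4792955-4792984, plus strand): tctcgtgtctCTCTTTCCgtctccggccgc
Rpl35a (chr16:33056472-33056501, plus strand): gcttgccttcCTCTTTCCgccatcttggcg
Rpl38 (chr11:114668570-114668599, plus strand): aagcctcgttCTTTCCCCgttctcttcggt
Rps27l (chr9:66946076-66946105, plus strand): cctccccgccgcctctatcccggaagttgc

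A RefSeq promoter entry was matched for 63 members. A run of C at the annotated start followed by at least 4 more C or T, read on the gene's strand only, was present at a start of 13 of these 63 genes (20.6%). It was present in 6 of 23 core small subunit genes and 7 of 34 core large subunit genes, in 0 of 6 paralogs and in 0 of 69 mitochondrial ribosomal protein genes. Among all 27025 genes of the promoter table the share was 3.01%. Allowing the run to begin within 20 bases either side of the start gave 81% of members and 53.3% of all genes. These matches describe the annotated starts and are not mapped transcript ends. In liver, 8 of the 13 core genes with a run and 30 of the 44 with an entry but no run passed the test for CC-IF against HFD, with median log2 differences of 0.35 and 0.35, and the difference between these groups of genes was not tested.

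The core genes were highly expressed in both tissues, at a median of 343 FPKM in liver and 153 FPKM in hippocampus. Rpl38 had the highest mean level of all members in both tissues, at 2073 and 1581 FPKM. It was followed in liver by Rpl41 (1361 FPKM), which encodes the smallest protein of the ribosome, and Rpl36 (958 FPKM). In hippocampus Rps21 (845 FPKM) and the stalk protein gene Rplp1 (792 FPKM) came next. The order of levels was similar across the tissues (Spearman's rho 0.91 over 77 core genes, given as a description, since both tissues share the same gene models).
Only 4 core genes lay under 20 FPKM in both tissues, namely Rps27 (7.42 FPKM in liver, 5.65 in hippocampus), Rpl26 (8.70 and 7.10), Rpl30 (10.3 and 10.4) and Rps15a (16.7 and 16.5). These levels come with a limit of the counting. Rps27rt, a near copy of Rps27 that is not a member, was listed at a mean of 1425 FPKM in liver and 775 in hippocampus, and 91.1% of its 50-base words also occur in Rps27. How the authors' counting divided reads between such copies is not given in the sources used here, so the level of Rps27 is uncertain. Rpl26, Rpl30 and Rps15a shared 22.7%, 10.7% and 5.12% of their 50-base words with other genes, and the reason for their low levels was not tested. Rpl26 was under 0.01 FPKM in 4 of 14 liver and 3 of 15 hippocampus libraries and reached 22.8 FPKM in liver HFD library 0. Rps27 ran from 3.37 to 14.7 FPKM over the livers and Rpl30 from 2.29 to 16.3. Over the core genes a median of 21% of 50-base words occurred in at least 1 other annotated gene, and 6 core genes shared over 50%.

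**Figure D1:**
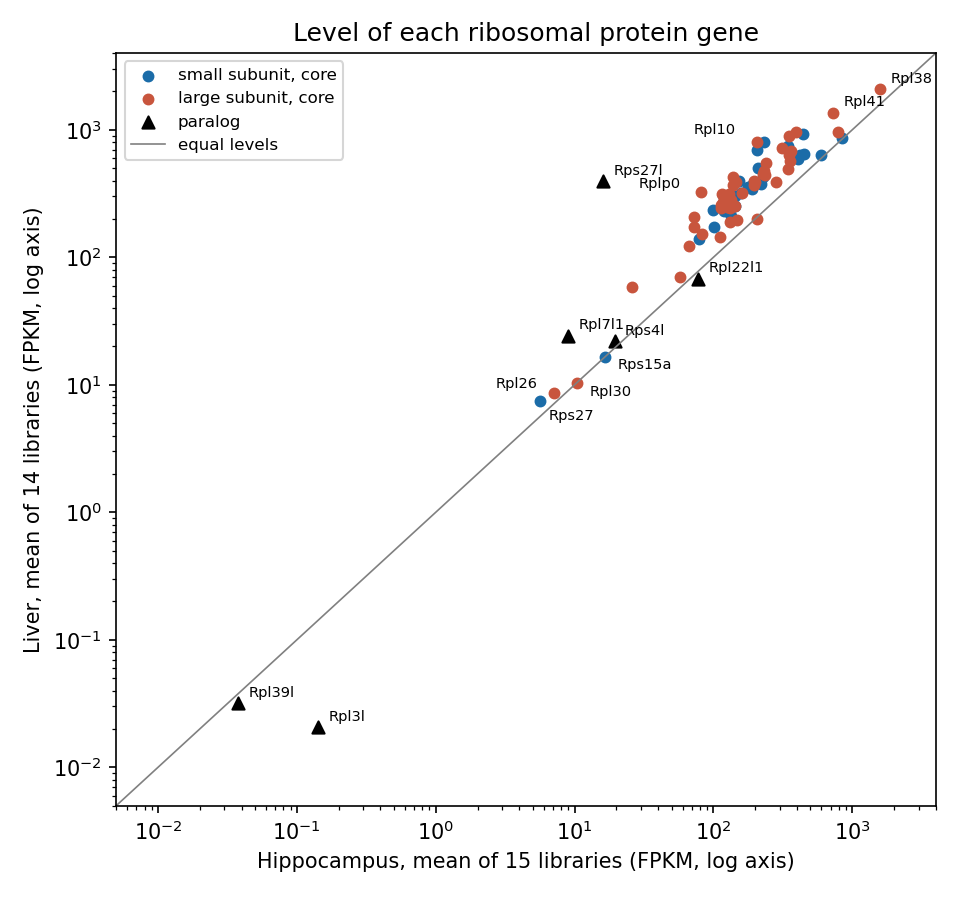
Mean FPKM of each ribosomal protein gene in hippocampus (15 libraries, horizontal log axis) against liver (14 libraries, vertical log axis), with core small subunit genes in blue, core large subunit genes in red and paralogs as black triangles. Most core genes lie above the line of equal levels, Rps27l stands far above it, and Rps27, Rpl26, Rpl30 and Rps15a form a low group. Rpl10l, listed at 0 in both tissues, is left off.

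In liver, ribosomal protein mRNA was lowest in the HFD and HFD-IF groups and highest in CC-IF. The 31 core small subunit genes summed to 10497, 12391, 11641 and 10263 FPKM in HFD libraries 0 to 3, and to 11022 and 12080 in HFD-IF. They summed to 13256, 13084, 13957 and 12925 FPKM in CC, and to 13193, 14396, 13105 and 15880 in CC-IF. Each CC and CC-IF library lay above every HFD and HFD-IF library. The 46 core large subunit genes showed the same order of groups, from 15665 to 19294 FPKM in HFD, 16532 and 18734 in HFD-IF, 19551 to 21740 in CC and 20195 to 24475 in CC-IF. The ratio of the small to the large sum stayed between 0.633 and 0.667 over the 14 livers, and the group ranges of this ratio overlapped. By group mean, 61 of the 77 core genes were highest in CC-IF and the other 16 in CC, while 48 were lowest in HFD and 27 in HFD-IF. CC-IF library 3 held the highest value of all livers for 63 core genes, and HFD library 3 the lowest for 35.

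**Figure D2:**
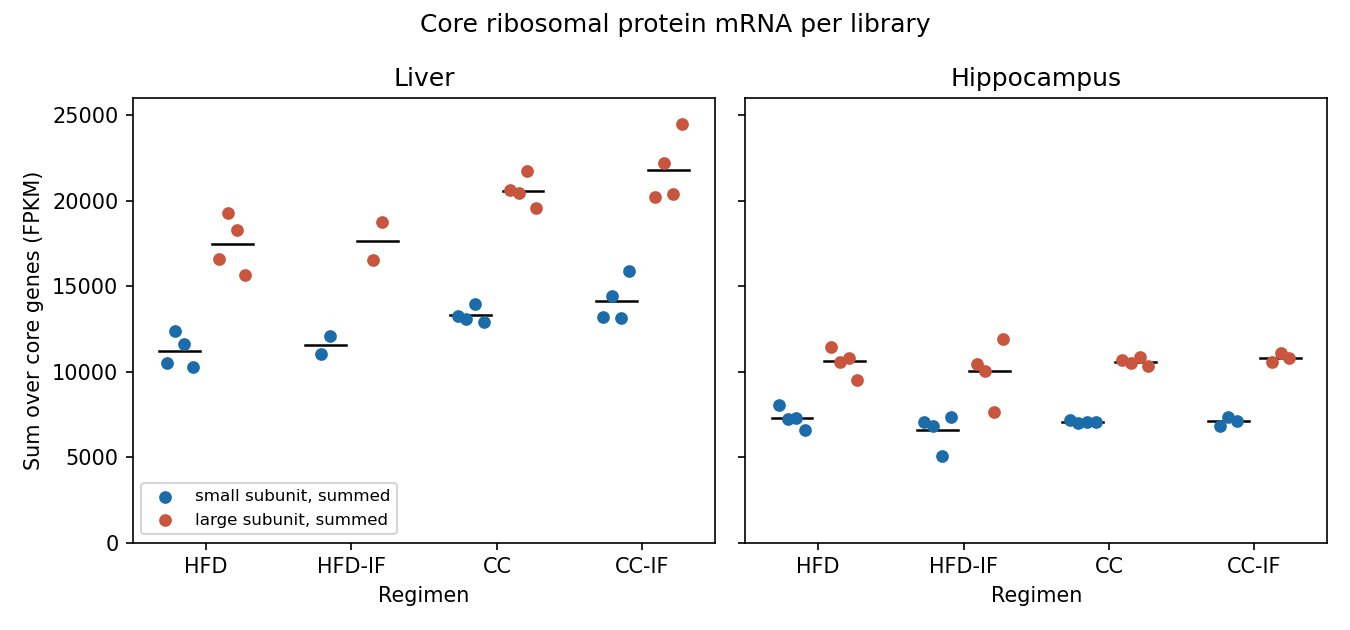
Summed FPKM of the core small subunit genes (blue) and core large subunit genes (red) in each library of liver and hippocampus, by regimen, with a line at the group mean. Small subunit sums in liver run from 10263 to 14396 FPKM apart from CC-IF library 3 at 15880, and all CC and CC-IF livers lie above the HFD and HFD-IF livers. In hippocampus, HFD-IF library 2 lies lowest at 5048 FPKM.

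Other features of the liver libraries moved with the regimens. Alb, the albumin gene, was listed at 0 in HFD library 3, in CC libraries 0, 2 and 3 and in all 4 CC-IF libraries. In the other 6 livers it stood between 29214 and 43965 FPKM, and an exact 0 in a table without counts can be a failed estimate. In liver, 58 genes were listed at 0 in at least 1 library with a median of at least 100 FPKM in the others. For 52 genes that median was at least 1000 FPKM. Of the members tested, 0 were listed at 0 in any liver. HFD library 3, the HFD liver with Alb at 0, had the lowest sums of that group, and CC library 1, the CC liver with Alb at 38834 FPKM, lay within the range of the other CC livers for the small subunit. These are single libraries, and the bearing of such zeros on the scaling and the sums was not tested. The other 6 hepatocyte markers were present in every liver, and their summed level was 15274 to 16781 FPKM in CC-IF against 17483 to 19880 in HFD, 17118.5 and 13327 in HFD-IF and 17706 to 20295 in CC. None of these 6 was called lower in CC-IF, and Cps1, a urea cycle enzyme gene, was higher in CC-IF than in HFD (0.52, adjusted p = 0.012) and than in CC (0.49, adjusted p = 0.0152). The 4 Kupffer cell markers summed to 24.6 to 38.0 FPKM in CC-IF, 36.8 to 72.6 in CC, 32.2 to 62.1 in HFD and 31.2 and 81.9 in HFD-IF. Of these markers only Clec4f was called lower in CC-IF than in CC (-0.82, adjusted p = 0.0297), and none was called in CC-IF against HFD. The 3 adipocyte markers summed to 5.29 to 70.9 FPKM in HFD, to 8.56 and 0 in HFD-IF and to at most 0.521 in CC and CC-IF. The HFD sums came from Cfd alone, which read 5.29 to 70.9 FPKM there, and the other adipocyte markers added almost nothing. In CC-IF against HFD the endothelial marker Cdh5 (-0.41, adjusted p = 0.0107), the acinar marker Cela1 (-2.04, adjusted p = 0.000775) and the erythroid marker Alas2 (-0.83, adjusted p = 0.0206) were lower. Cdh5 and Cela1 were also lower in CC-IF than in CC. The other endothelial markers Pecam1 (-0.19), Kdr (-0.09) and Stab2 (0.02) were not called in CC-IF against HFD. Nor was the erythroid marker Hbb-bs (0.12), and Cela1 was the only acinar marker tested. HFD-IF library 1 had macrophage markers at 190.2 FPKM, against 17.3 to 56.8 in the other livers, and fibroblast markers at 426 FPKM. The part of these shifts in the ribosomal protein results was not tested, and fewer cells of a type cannot be told apart from less RNA per cell in such bulk samples.

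Changing the diet alone, CC against HFD in liver, raised 5 of the 81 members tested and lowered none (limma, Benjamini-Hochberg adjusted p under 0.05 over 11497 genes with a mean of at least 1 FPKM). Of all tested genes, 0.339% were higher in CC by this test and 1.97% lower. Among them were Rps12, Rpl12, Rpl21 and Rpl36a. Although few passed, all 77 core genes had estimates above 0, with a median log2 difference of 0.23 for the small and 0.20 for the large subunit, against -0.02 for all genes tested. All log2 differences are on the log2(FPKM + 1) scale.
Rpl12, whose protein sits at the base of the ribosomal stalk, read 182, 219, 212 and 188 FPKM in HFD and 320.4, 302, 315 and 263 in CC, so that all CC livers lay above all HFD livers. Its log2 difference was 0.58 (SE 0.124, adjusted p = 0.0305). Rpl36a, a large subunit gene on the X chromosome, read 206, 209, 215 and 178 FPKM in HFD and 298, 273, 279.5 and 264 in CC, a log2 difference of 0.47 (SE 0.0977, adjusted p = 0.0279). Rps12 of the small subunit read 332, 348, 368 and 324 FPKM in HFD and 466, 471, 492 and 477 in CC, a log2 difference of 0.47 (SE 0.103, adjusted p = 0.0329). The groups were separate for each of these genes, as they were for Rpl21 (log2 difference 0.35). In all, 32 of the 77 core genes had every CC library above every HFD library, which 4.6% of all genes tested did. The calls rest on few libraries. Their count fell to 0 without HFD library 0, 2 or 3 or CC library 0, 1 or 2, to 2 without CC library 3, and to 0 with a block for the column number, while it was 8 when only these 2 groups entered the fit and 9 without either HFD-IF library. It was 3 without CC-IF library 1 or 2.

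Adding fasting to the high-fat diet changed no member in liver by the same test, where 0.357% of all genes were higher and 0.965% lower in HFD-IF. With 2 HFD-IF libraries the comparison is weak. An unadjusted p under 0.05 was seen for 4 members (4.94%), against 17.8% of all genes. The core medians were 0.05 for the small and 0.02 for the large subunit, and 49 of 77 core estimates lay above 0. Rps4l, the row annotated as a pseudogene, read 36.3, 16.8, 20.0 and 25.3 FPKM in HFD and 14.8 and 10.8 in HFD-IF (log2 difference -0.85, SE 0.347, adjusted p = 0.228). Both HFD-IF libraries lay below all HFD livers for this gene. Without HFD-IF library 0, 3 members passed, all higher. Quantile normalization raised the medians to 0.18 and 0.14, with no member past the threshold.

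Adding fasting to chow raised 5 members in liver, Rps9, Rps14, Rps19, Rpl6 and Rpl17, and lowered none, in a comparison where 14.2% of all tested genes were higher and 9.77% lower in CC-IF than in CC. The members' share was no higher than that of all genes. The core medians were 0.11 for the small and 0.07 for the large subunit, 59 of 77 estimates lay above 0, and 17 core genes had every CC-IF library above every CC library, against 17.4% of all genes. Rps14, whose protein sits on the platform of the small subunit, read 319, 253, 342 and 327 FPKM in CC and 442, 443, 405 and 447 in CC-IF. Its log2 difference was 0.49 (SE 0.114, adjusted p = 0.00772). Rps9, a small subunit protein that binds rRNA early in assembly, read 368, 362, 425 and 385 FPKM in CC and 463, 469, 466 and 485 in CC-IF (log2 difference 0.29, SE 0.0789, adjusted p = 0.0174). Rps19, whose human counterpart is mutated in Diamond-Blackfan anaemia, read 172, 165, 164 and 159 FPKM in CC and 197, 195, 188 and 212 in CC-IF, a log2 difference of 0.26 (SE 0.0893, adjusted p = 0.0494). All 3 genes had separate groups. Scaling mattered here. With quantile normalization the medians were 0.02 and -0.01 and the 3 calls were 1 higher and 2 lower, with median scaling 2 members passed, and the count fell to 1 without CC library 0 or 1, to 2 without CC-IF library 1, 2 or 3, without HFD library 0 or with the block, and to 3 without CC library 2 or 3 or HFD library 2 or 3.

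The difference between chow and high-fat diet under fasting, CC-IF against HFD-IF, changed no member in liver after adjustment, where 0.391% of all genes were higher in CC-IF and 0.2% lower. Still, 75 of 77 core estimates lay above 0, with medians of 0.29 for the small and 0.30 for the large subunit, and 47 members (58%) had an unadjusted p under 0.05, against 18.2% of all genes. In 49 core genes every CC-IF library lay above both HFD-IF libraries, against 12.6% of all genes. Rpl6 read 244 and 262 FPKM in HFD-IF and 316, 328, 328 and 356 in CC-IF (log2 difference 0.39, SE 0.0917, adjusted p = 0.0679). Rpl7a read 385 and 331 FPKM in HFD-IF and 452, 499, 475 and 527 in CC-IF (log2 difference 0.45, SE 0.112, adjusted p = 0.0814). In both genes the CC-IF libraries all lay above the HFD-IF pair. Under quantile normalization the medians were 0.10 and 0.13, 4 members passed once the trend with transcript length was removed, and 3 passed without HFD-IF library 0.

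The largest response was between the opposite ends of the design. CC-IF against HFD, which changes both diet and feeding pattern, raised 52 of the 81 members tested in liver, 22 of the small and 30 of the large subunit, and lowered none. Of all genes tested, 12.4% were higher and 11.3% lower in CC-IF. The core medians were 0.39 for the small and 0.32 for the large subunit, against 0.00 for all genes. In 49 of the 77 core genes every CC-IF library lay above every HFD library, which 14.9% of all genes tested showed. The 5 members called for CC against HFD and the 5 called for CC-IF against CC had no gene in common, and all 10 lay among the 52. These comparisons share libraries, so their lists are not independent.
Within the small subunit, Rps9 read 297, 356, 337 and 332 FPKM in HFD, 378 and 390.5 in HFD-IF, 368, 362, 425 and 385 in CC and 463, 469, 466 and 485 in CC-IF. Every CC-IF library lay above every other liver, and the log2 difference from HFD was 0.51 (SE 0.0789, adjusted p = 0.000877). Rps16 read 398, 435, 442 and 403 FPKM in HFD, 432 and 531 in HFD-IF, 532, 512, 527 and 509 in CC and 540.2, 573, 581 and 613 in CC-IF, a log2 difference of 0.46 (SE 0.0826, adjusted p = 0.00217).
In the large subunit, Rpl6 read 243, 267, 248 and 229 FPKM in HFD against 316, 328, 328 and 356 in CC-IF, with CC between them at 292, 272, 301 and 271 (log2 difference 0.43, SE 0.0749, adjusted p = 0.00176). Rpl5, a carrier of 5S rRNA that also binds the p53 regulator MDM2, read 139, 146, 157 and 146 FPKM in HFD, 157 and 169 in HFD-IF, 180.1, 153, 174 and 184 in CC and 185, 191, 205 and 219 in CC-IF. Its log2 difference was 0.44 (SE 0.0815, adjusted p = 0.00253). For these 4 genes the call stood under all 22 alternatives run.

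**Figure D3:**
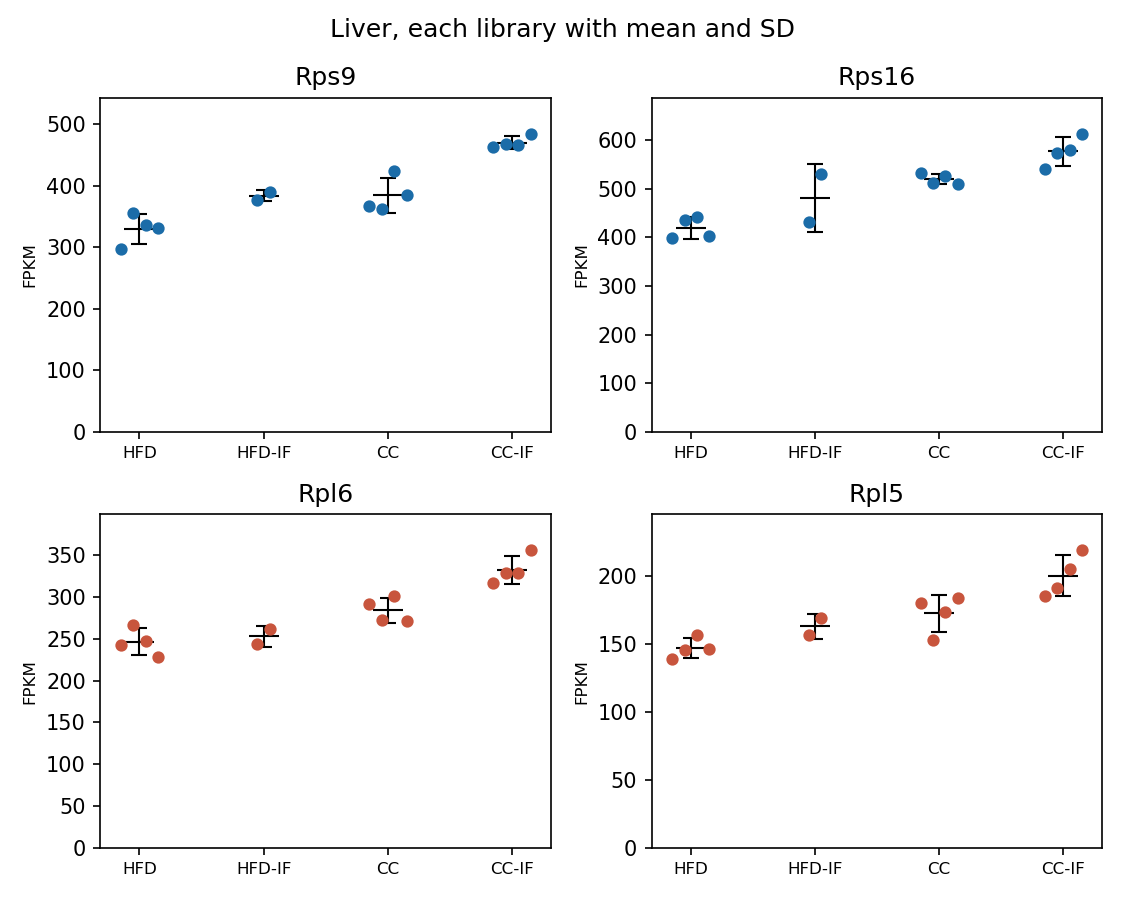
FPKM of Rps9, Rps16, Rpl6 and Rpl5, members with small p for CC-IF against HFD, in each liver library, by regimen, with the mean (dash) and SD (bars); small subunit genes are blue and large subunit genes red, and axes start at 0. For each gene the 4 CC-IF livers lie above the 4 HFD livers, from 463 to 485 against 297 to 356 FPKM for Rps9.

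The 25 core genes that did not pass differed in 2 ways. Rpl26 (log2 difference -1.43, SE 1.09) and Rpl30 (-0.65, SE 0.364), both at low and erratic levels, had estimates below 0. The other 23 had estimates above 0. Rps2 (0.05, SE 0.0985), Rps29 (0.07, SE 0.106) and the stalk gene Rplp1 (0.11, SE 0.135) were the nearest to 0 among well-expressed genes, together with Rpl34 (0.07, SE 0.197). Rpl38 (0.35, SE 0.149) and Rps27 (0.59, SE 0.289) had estimates as large as those of called genes but a wide spread. Rpl38 read 1754, 1941, 1976 and 1526 FPKM in HFD and 1948, 2435, 2121 and 2687 in CC-IF, so that HFD library 2 exceeded CC-IF library 0. None of the 4 paralogs tested passed. The number of calls for CC-IF against HFD was 34 without HFD library 0 and 33 without CC-IF library 3.

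**Figure D4:**
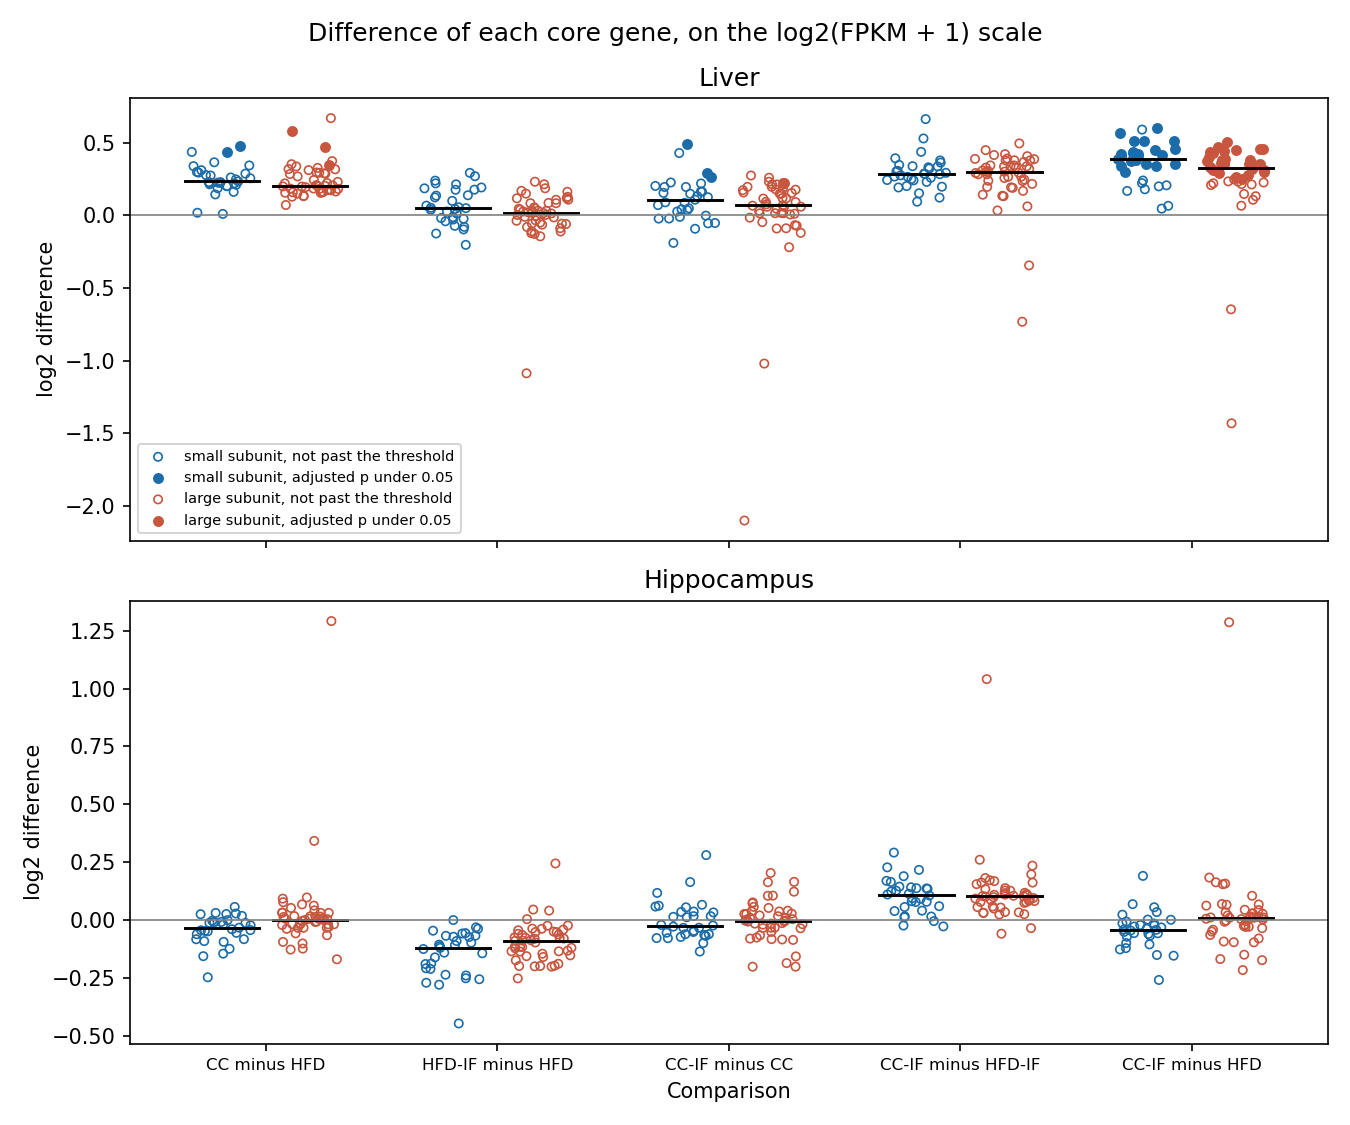
Log2 difference of each core gene on the log2(FPKM + 1) scale in 5 comparisons, liver above and hippocampus below (the vertical axes differ), with the small subunit in blue and the large subunit in red. Filled points passed adjusted p under 0.05, open points did not, and lines mark subunit medians. In liver the CC-IF minus HFD column holds 52 filled points with medians of 0.39 and 0.32, and in hippocampus no point is filled; the open points below -0.6 in liver and above 1 in hippocampus are Rpl26 and Rpl30.

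Whether the response to fasting differed between diets was tested as an interaction in liver, CC-IF minus CC against HFD-IF minus HFD. No member passed, with 1% of all genes above and 0.113% below 0 by this test and 3 members (3.7%) at an unadjusted p under 0.05, against 18.3% of all genes. Rps14 had the smallest p (log2 difference of differences 0.51, SE 0.18, adjusted p = 0.166), followed by Rpl24 (0.31, SE 0.131, adjusted p = 0.238), which read 254, 236, 258 and 255 FPKM in CC, 266, 292, 263 and 331 in CC-IF, 228, 253, 244 and 229 in HFD and 217 and 224 in HFD-IF. The core medians of 0.03 for the small and 0.07 for the large subunit turned to -0.18 and -0.13 under quantile normalization. Without HFD-IF library 0, 2 members passed, both below 0.

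None of the paralogs passed the test in any liver comparison. Rps27l, a paralog of Rps27 known as a target of p53, read 388, 459, 434 and 372 FPKM in HFD, 357 and 361 in HFD-IF, 411, 431, 449 and 337 in CC and 373, 427, 329 and 429 in CC-IF livers. The groups overlapped, and CC-IF against HFD gave -0.09 (SE 0.116, adjusted p = 0.614). Rpl22l1, a paralog of Rpl22, read 43.7, 69.8, 72.7 and 65.3 FPKM in HFD and 65.1, 71.9, 67.4 and 73.7 in CC-IF (log2 difference 0.17, SE 0.187). Rpl7l1, which acts in ribosome assembly, kept between 20.9 and 30.7 FPKM over all livers, and Rps4l between 10.8 and 36.3. Rpl3l, the muscle-type paralog of Rpl3, Rpl39l and Rpl10l, both known from testis, had mean levels of 0.0208, 0.0319 and 0 FPKM in liver and 0.142, 0.0378 and 0 in hippocampus and were not tested. Whether paralogs as a group differ from core genes was not tested.

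Hippocampus showed no change that passed the test. None of the 81 members was called in any of the 5 comparisons or in the interaction, and of 12857 genes tested 1 was called at all, in CC-IF against CC (0.00778%), with 0% in the others. The number of members with an unadjusted p under 0.05 was 1 for CC against HFD, 7 for HFD-IF against HFD, 0 for CC-IF against CC, 1 for CC-IF against HFD-IF and 0 for CC-IF against HFD. In the same order this was so for 3.56%, 7.6%, 6.39%, 2.98% and 8.8% of all genes, so that the 7 of 81 members (8.64%) lay near the share of all genes. The core medians for CC-IF against HFD were -0.04 for the small and 0.01 for the large subunit. The small subunit summed to 8052, 7237, 7271 and 6589.7 FPKM in HFD, 7047, 6819, 5048 and 7329 in HFD-IF, 7196, 6969, 7038 and 7060 in CC and 6809, 7348 and 7121 in CC-IF. The regimens overlapped for both subunits. The large subunit summed to 9535 to 11456 FPKM in HFD, 7661 to 11916 in HFD-IF, 10343 to 10826 in CC and 10536 to 11105 in CC-IF. The ratio of small to large sums ran from 0.615 to 0.703.
One library stood apart. HFD-IF library 2 had the lowest value of all 15 hippocampus libraries for 72 of the 77 core genes, with sums of 5048 and 7661 FPKM against 6590 to 8052 and 9535 to 11916 in the others. It also had the lowest of the rough depth estimates, at about 11800000 fragments, and its median mitochondrial ribosomal protein level was 11.2 FPKM against 12.1 to 13.9. With it, 72 of 77 core estimates for HFD-IF against HFD lay below 0, with medians of -0.12 for the small and -0.09 for the large subunit. Without it the medians were -0.04 and 0.02. Likewise the CC-IF against HFD-IF medians of 0.11 and 0.10 became 0.00 and -0.01.
Rps16 read 237, 222, 229 and 221 FPKM in HFD and 210.3, 202, 158 and 197 in HFD-IF, where all HFD libraries lay above all HFD-IF libraries (log2 difference -0.25, SE 0.0815, adjusted p = 0.576). Rps14 read 257, 216, 187 and 183 FPKM in HFD and 140.0, 217, 107 and 168 in HFD-IF (log2 difference -0.44, SE 0.17, adjusted p = 0.583). In CC against HFD, Rpl34 had the smallest p at 58.6, 50.5, 60.7 and 41.5 FPKM in HFD and 74.3, 68.2, 64.7 and 59.8 in CC (log2 difference 0.34, SE 0.132, adjusted p = 0.994), with CC library 3 inside the HFD range. For CC-IF against CC, Rplp0, the stalk base protein gene, read 84.6, 89.1, 83.8 and 89.6 FPKM in CC and 68.4, 79.1 and 79.1 in CC-IF (log2 difference -0.20, SE 0.103, adjusted p = 0.806). Its groups did not overlap, yet the difference did not pass. For CC-IF against HFD-IF, Rplp2 read 321, 295, 295 and 348 FPKM in HFD-IF and 374, 365 and 372 in CC-IF (log2 difference 0.24, SE 0.105, adjusted p = 1). For CC-IF against HFD, Rpl17 read 87.8, 94.5, 86.0 and 90.4 FPKM in HFD and 75.7, 84.9 and 78.0 in CC-IF (log2 difference -0.17, SE 0.0883, adjusted p = 0.615).
The hippocampus libraries also differed in choroid plexus content. The 5 markers of that tissue summed to 10.8 to 52.5 FPKM in HFD, 6.72 to 15.7 in HFD-IF, 7.91 to 57.4 in CC and 7.82 to 34.1 in CC-IF, and the part of this in the members' levels was not tested. Neuronal markers summed to 1777 to 2169 FPKM in all 15 libraries.

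**Figure D5:**
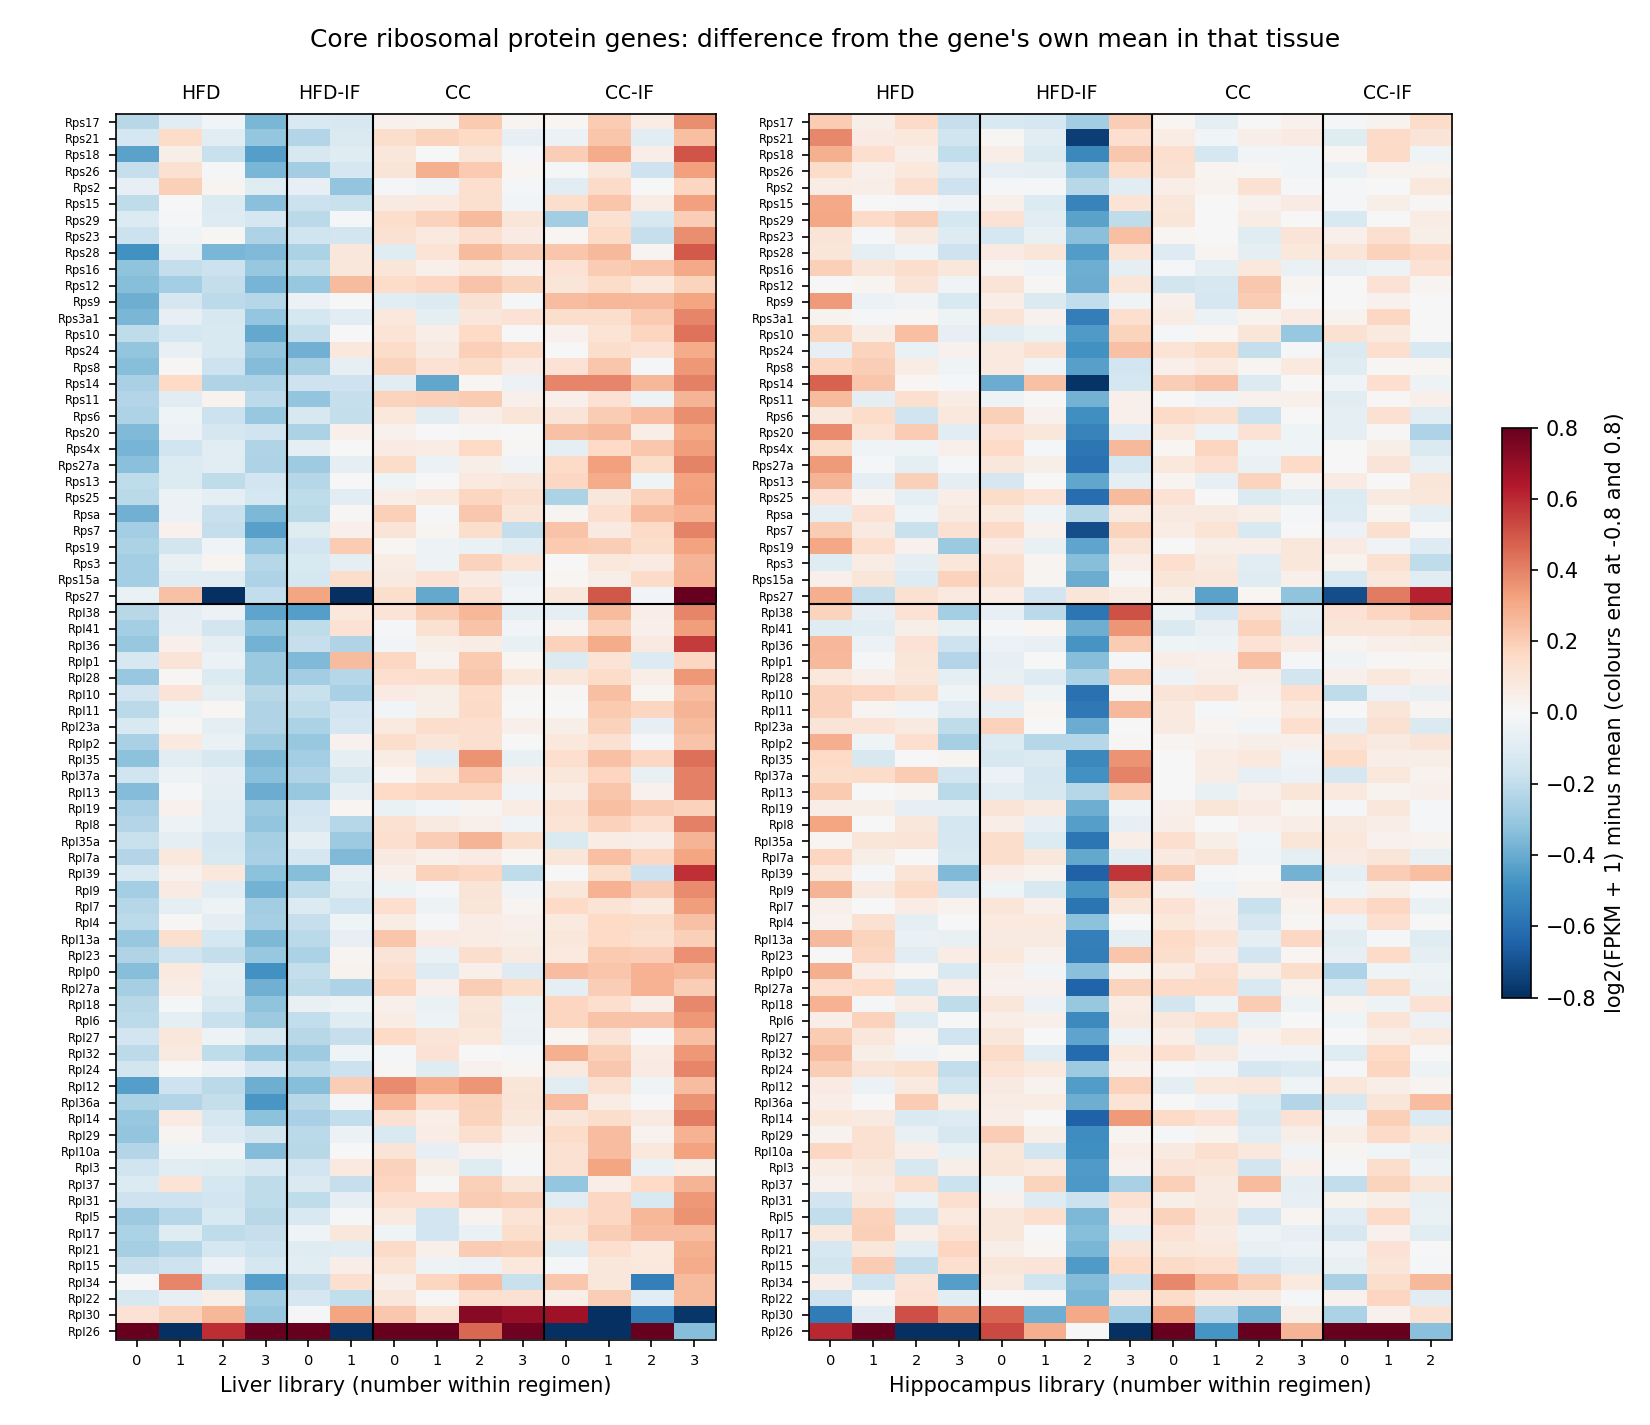
Log2(FPKM + 1) of 75 core genes minus its own mean over the libraries of liver (left) or hippocampus (right), with libraries in columns by regimen and genes in rows by subunit (small above the horizontal line) and falling liver level; red is above and blue below the mean, and colours end at -0.8 and 0.8. The HFD livers are mostly blue and CC-IF library 3 mostly red (highest in 63 of all 77 core genes). In hippocampus HFD-IF library 2 is a blue column (lowest in 72 of all 77). Both counts include core genes that are not drawn.

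The tissues were compared in a single model over 29 libraries and the 9939 genes with at least 1 FPKM on average in each. The labels do not say whether liver and hippocampus came from the same mice. The libraries were therefore treated as independent, and the bearing of shared mice on the tissue tests was not tested. In this model the spread within groups is shared by both tissues. On CC, 71 of the 81 members were lower in hippocampus than in liver and none higher, against 44.7% and 35.6% of all genes, but this rests on the scaling. As deposited, the core medians were -1.02 for the small and -1.03 for the large subunit, where all genes had a median of -0.13. Under quantile normalization 24 members were higher and 23 lower, with medians of 0.06 and 0.01. Over all libraries 75 of 77 core genes had the higher mean in liver as deposited, by a median ratio of 1.96 and up to 3.96. Rps27l, Rps2, Rpl10, Rplp0, Rpl28 and Rpl7a, the 6 members with the smallest p on CC, stayed lower in hippocampus and past the threshold under all 35 alternatives, quantile normalization included.
Rps27l had the steepest difference. It read 411, 431, 449 and 337 FPKM in CC livers and 19.8, 16.2, 15.8 and 14.7 in CC hippocampi, a log2 difference of -4.53 (SE 0.163, adjusted p = 3.81e-19) that was -3.83 with quantile normalization. Its mean in liver was 397 FPKM, near the core median, against 16 in hippocampus. Rplp0 read 351, 298, 329.9 and 298 FPKM in CC livers and 84.6, 89.1, 83.8 and 89.6 in CC hippocampi (log2 difference -1.86, SE 0.106, adjusted p = 8.49e-15). Rpl10, on the X chromosome, read 833, 823, 879 and 799.9 FPKM in CC livers and 218, 221, 208 and 223 in CC hippocampi (log2 difference -1.93, SE 0.107, adjusted p = 4.55e-15). With quantile normalization these were -0.85 and -0.72. On HFD 66 members were lower and 1 higher in hippocampus (45.7% and 33.9% of all genes), on HFD-IF 69 and 0 (42.3% and 33.4%), and on CC-IF 69 and 0 (45% and 34.1%).

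A change called in liver and not in hippocampus was examined by testing the difference between the tissues. For CC against HFD, 3 members passed, each with the lower change in hippocampus (0.181% of all genes, with 1.21% in the other direction). Among them were Rpl36a (-0.63, SE 0.148, adjusted p = 0.0308) and Rps16 (-0.45, SE 0.114, adjusted p = 0.0444). In hippocampus Rpl36a read 129, 125, 143 and 128 FPKM in HFD and 125, 122, 115 and 106 in CC, where every CC library lay below every HFD library, the nearest pair by less than 1 FPKM. These 3 calls were narrow, with 0 members passing without liver HFD library 3, liver CC library 0 or 2, or hippocampus HFD library 2 or CC library 1 or 3, and 5 without hippocampus HFD-IF library 2. Leaving out 11 other libraries, each in turn, gave 1.
For CC-IF against CC no member passed (4.96% of all genes above 0, 8.79% below), and Rplp0 came nearest (-0.46, SE 0.156, adjusted p = 0.051). Without hippocampus HFD-IF library 2, 2 members passed, both below 0. For CC-IF against HFD, a contrast added after the liver calls were seen, 11 members passed, 6 of the small and 5 of the large subunit, all with the lower change in hippocampus (5.59% of all genes, with 5.67% in the other direction). Among them were Rps16 (-0.58, SE 0.119, adjusted p = 0.00211), Rpl17 (-0.55, adjusted p = 0.00262) and Rplp0 (-0.62, adjusted p = 0.00974). Of the core genes, 74 of 77 had estimates below 0, with medians of -0.40 for the small and -0.30 for the large subunit. The count was 21 with median scaling, 26 after removing the length trend, 17 without liver HFD library 1 and 32 without hippocampus HFD-IF library 2. That last library is outside this contrast but enters the spread shared by both tissues. In Rplp0 the HFD livers read 253, 338, 304 and 228 FPKM and the CC-IF livers 381, 373, 389 and 383, whereas hippocampus read 99.8, 84.4, 82.0 and 74.6 in HFD and 68.4, 79.1 and 79.1 in CC-IF.

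Other genes of the translation machinery gave a mixed picture in the livers of CC-IF against HFD. Of 21 other TOP or ribosome-linked genes tested, 14 were higher and none lower, with a median log2 difference of 0.36, a share to be read against the 12.4% of all genes. Npm1, a nucleolar chaperone of ribosome assembly, read 75.1, 68.3, 83.4 and 79.9 FPKM in HFD and 123, 133, 135 and 152 in CC-IF (log2 difference 0.81, SE 0.0959, adjusted p = 0.000177). Eef2, the translocation factor, read 432, 533, 494 and 443 FPKM in HFD and 760.0, 769.5, 807 and 839 in CC-IF (log2 difference 0.74, SE 0.094, adjusted p = 0.000297). Pabpc1, the cytoplasmic poly-A binding protein, rose by 0.54 on the log2 scale (SE 0.0853, adjusted p = 0.00104). Fau and Gnb2l1, which encode ribosomal proteins whose symbols fall outside the rule, rose by 0.45 and 0.50. Rpl36al, another such gene, which was not in a tested list, had a mean of 247 FPKM in HFD, 307 in CC and 215 in CC-IF livers, and its HFD (225 to 269) and CC-IF (176 to 247) ranges overlapped. In CC-IF against CC, 8 of these 21 genes were higher and none lower, and in CC against HFD none passed.
The counts of the next lists are to be read against 12.4% of all genes higher and 11.3% lower in this comparison. Of 29 initiation factors tested, 1 was higher and 3 lower, with a median of -0.05. Eif1 was higher (0.53) and Eif4g3 (-0.33), Eif2s1 (-0.24) and Eif2b2 (-0.25) were lower. Of 51 nucleolar biogenesis genes, 6 were higher and 2 lower, with a median of 0.05, so the share higher lay near that of all genes. Ncl, which encodes nucleolin, read 25.4, 23.7, 24.9 and 26.7 FPKM in HFD, 37.9 and 35.4 in HFD-IF and 35.2, 42.2, 45.3 and 43.0 in CC-IF (CC-IF against HFD 0.69, SE 0.0905, adjusted p = 0.000355). It was also higher in HFD-IF than in HFD (0.52, adjusted p = 0.0371), where no cytosolic ribosomal protein gene passed and the mitochondrial Mrpl53 was lower (-0.50, adjusted p = 0.0386). Of 23 mTOR, LARP and MYC genes 3 were higher and 1 lower in CC-IF than in HFD, and here too the share higher lay near that of all genes. The 3 were the S6 kinase gene Rps6kb1 (0.53), Eif4ebp3 (1.46) and Deptor (0.43), against Sesn3 (-0.39). Myc was higher in HFD-IF than in HFD (2.14, SE 0.474, adjusted p = 0.0465), at 2.27, 3.29, 1.18 and 1.37 FPKM in HFD and 12.7 and 11 in HFD-IF.
The mitochondrial ribosomal proteins, which serve a separate ribosome, had 3 of 77 genes higher and 11 lower in CC-IF than in HFD and a median of -0.10. Mrpl1 read 13.1, 14.3, 12.8 and 17.3 FPKM in HFD and 8.44, 9.56, 8.04 and 9.15 in CC-IF (log2 difference -0.64, SE 0.101, adjusted p = 0.000966). Of all genes, 11.3% were lower. In hippocampus no gene of these lists passed in any comparison.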

How the data were processed

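The authors deposited 1 table of FPKM values for 29 libraries. Per the submitters' processing notes, the genome build was GRCm38 (mm10), and Bowtie2 2.3.5.1, TopHat2 2.1.1, Trimmomatic 0.39 and FastQC 0.11.9 are named without their settings. The program behind the FPKM, and its annotation, were not given in the sources used here. Table columns name the group and a number from 0, while labels number from 1, so columns were tied to groups only.

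Values were tested as log2(FPKM + 1) with limma 3.58.1 in R 4.3.3 (intensity trend, two-sided), over genes with a mean of at least 1 FPKM per tissue, all 4 regimens in one fit, with p adjusted by Benjamini-Hochberg over all genes tested and a threshold of 0.05. FPKM are relative. Each p-value sets a difference between groups against the spread of these libraries within groups. That spread is shared over all groups in a fit, so libraries outside a comparison also bear on its p. Gene lengths and 50-base words came from GENCODE M21, and starts from RefSeq. The fit was tested on simulated data with known changes in CC-IF against HFD, 50 genes for each size. It recovered 24% of changes of 0.35 log2 in liver and 28% in hippocampus. Of changes of 1 log2 it recovered 94% and 96%. The other 11297 genes in liver and 12657 in hippocampus were left unchanged there. In the deposited data, 12.4% of liver genes were called higher and 11.3% lower in this comparison, against 0% in hippocampus. The adjusted p depends on how many genes change, and recovery at those shares was not tested. Nor was it tested for members alone or for the other comparisons. A gene without a call may still hold a change as small as 0.35. Members and gene lists were chosen with earlier results of these data known. Values by library are given for up to 6 members with the smallest p per comparison (the 2 smallest where none passed), for paralogs and for the highest and lowest levels, and for up to 3 genes of other lists, except that 2 members enter every fit and count but are not reported here. Other genes and libraries named, and the tissue test of CC-IF against HFD, were chosen after values were seen. Alternatives were the pseudocount, filter, scaling, length trend, intensity trend, groups fitted, block and libraries left out.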

Additional observations from a re-analysis of the deposited data

Results flagged for a closer look

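In groups of 4 libraries, 8 of 174 tested combinations of quantity and group held 1 library far from the other 3. The gap to the nearest, divided by the range, then exceeded Dixon's critical value, which chance gives in about 1 of 20 groups. The quantities were levels of members, the subunit sums and their ratio, and all 8 flagged were levels of members. In liver, Rps14 stood low at 405.3 FPKM in a CC-IF library and high at 377 in an HFD library. In CC library 2, Rps2 stood high at 764.7 and Rps4l low at 13.48. In hippocampus, HFD-IF library 2 was low for Rpl36a (94.72), Rpl5 (56.09) and Rpl6 (93.27), and Rps4l was high at 26.72 FPKM in a CC library.

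The change from HFD to CC differed between tissues (hippocampus minus liver, log2) for Rpl36a at -0.6349 and Rps16 at -0.4542. For CC-IF against HFD the differences were -0.5533 for Rpl17, -0.6247 for Rplp0, -0.5843 for Rps16 and -0.5391 for Rps9.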

How the results depend on the processing

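The counts here are of members called. Without liver CC-IF library 0, 1 member was lower in CC-IF against CC and 1 in CC-IF against HFD, and 1 was higher in the tissue test of CC-IF against CC, where the counts reported held none. For liver CC against HFD (5 in the fit reported) the count was 0 with the replicate block and 8 with only the groups compared, and 0 to 9 with 1 library left out. For CC-IF against CC (5) it was 2 with median scaling, 3 with quantile normalization (1 higher, 2 lower), 3 without the intensity trend and 2 with the replicate block, and 1 to 5 with 1 library left out. For CC-IF against HFD-IF it was 4 after removal of the length trend and 0 to 3 with 1 library left out. With 1 library left out, HFD-IF against HFD gave 0 to 3, CC-IF against HFD 33 to 55 and the interaction 0 to 2. In hippocampus all counts were 0. Hippocampus against liver on CC gave 47 under quantile normalization and 70 to 72 with 1 library left out. Between tissues, CC-IF against CC gave 1 after removal of the length trend and 0 to 2 with 1 library left out, CC against HFD gave 0 to 5, and CC-IF against HFD gave 21 with median scaling, 26 with the length trend removed and 8 to 32. The cause of these shifts was not tested, except that leaving out a library lowers the number of samples. In the block for the column number, CC-IF against HFD in liver gave 43. Correlations of same-numbered libraries ran from -0.159 to 0.335 in liver (median 0.0323, against -0.0139 for other numbers) and -0.153 to 0.278 in hippocampus (0.0451 against -0.0275), and 6 of 14 and 8 of 15 libraries correlated best with their own number. The labels state no pairing, so the libraries were not treated as paired. How many libraries would correlate best with their own number by chance was not worked out. These values therefore do not settle whether equal numbers mark a shared effect. FPKM carry no exact depth, so low members such as Rps27, Rpl26 and Rpl30 have unknown counting error.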
